A study of Mus musculus with 4 samples.

Results

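Dagla, Daglb, Napepld and Gde1 encode 4 enzymes that make endocannabinoids, the lipid messengers that act on cannabinoid receptors. They were taken by gene symbol from the 20211 genes counted in all 4 libraries of the series, and all 4 were found. The libraries held nuclear RNA from single nuclei of mouse hippocampus, with 1 library for each of 4 genotypes: wild type (WT) and, as labelled, a total MAGL-KO, an astrocyte-specific MAGL-KO and a neuron-specific MAGL-KO. MAGL is monoacylglycerol lipase, the product of Mgll, which breaks down 2-arachidonoylglycerol (2-AG), and by its title the series asks how surplus endocannabinoids in neurons bear on cognition. The deleted part of Mgll, the driver of each cell-specific knockout and the age, sex and number of the mice are not stated in the labels. Values below are listed in the order wild type, then the libraries labelled total, astrocyte and neuron knockout.

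The brain makes 2-AG on demand at the postsynaptic membrane. Phospholipase C cuts a membrane phosphoinositide to diacylglycerol, and a diacylglycerol lipase then removes a fatty acid to leave 2-AG. Dagla encodes diacylglycerol lipase alpha, which makes most 2-AG at synapses of the adult brain, and Daglb encodes diacylglycerol lipase beta, known for its work in microglia and macrophages. Anandamide belongs to the N-acylethanolamines. Napepld encodes the phospholipase D that releases them from N-acylated phosphatidylethanolamine in a single step, and Gde1 encodes a glycerophosphodiesterase that completes a parallel route. 2-AG travels back across the synapse to the receptor Cnr1 on axon terminals, and MAGL there ends the signal.

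The libraries held from 8945 to 31243 barcodes and from 81623644 to 193307038 UMIs, where a UMI is 1 counted RNA molecule. After removal of shallow nuclei and called doublets, 8995, 24631, 10010 and 8618 nuclei remained, and doublet calls took 20.1% of the barcodes of the library labelled total knockout against 2.43% to 5.99% in the others. Pairs of libraries shared 108 to 466 barcode sequences. Xist RNA, which marks female nuclei, was found in 45.3% to 51.0% of the nuclei of 3 libraries and in 0.122% of those of the library labelled total knockout. That library also held 741 medium spiny and 191 thalamic nuclei, against at most 28 and 22 in any other. Over all kept nuclei the targeted gene Mgll stood at 107, 85.9, 108 and 109.7 CPM (a gene’s UMIs scaled to the same fixed total of UMIs in every library), and in astrocyte nuclei at 473, 346, 379 and 554 CPM. The level in the library labelled neuron knockout was not below wild type, and since the deleted part is not given, RNA over the whole gene does not check the labels, so each library is called by its label. For the 4 enzyme genes all values are CPM of the UMIs summed over the nuclei of 1 class in 1 library, and class names mean that nuclei resemble a type on its marker genes. Groups called all excitatory, all inhibitory or all neurons pool named classes only. They leave out unnamed clusters and medium spiny, Cajal-Retzius and immature neurons.

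In GENCODE M21 on GRCm38, the build that the submitters' processing notes name as mm10, Dagla lies on the minus strand of chromosome 19 from 10245265 to 10304877. Daglb lies on the plus strand of chromosome 5 from 143464584 to 143505942, and Napepld on the minus strand of the same chromosome from 21662901 to 21701396. Gde1 lies on the minus strand of chromosome 7 from 118688545 to 118705778. Introns make up 76.9% to 90.4% of the 4 genes. Daglb overlaps the opposite-strand gene Rac1 by 2309 bases, and whether the counting used strand is not given, so its level may hold some Rac1 reads. Over all neurons the levels were 3.66 CPM per kb of gene for Gde1, 1.43 for Dagla, 0.887 for Napepld and 0.81 for Daglb. Per kb of annotated exon the order was the same, with 37.2 CPM for Gde1, 14.8 for Dagla, 8.63 for Napepld and 3.5 for Daglb.

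Among the 11 classes present in all 4 libraries, Dagla RNA was most abundant in dentate granule neurons, the principal cells of the dentate gyrus, with 120, 136, 151 and 157 CPM. The mean of 141 ± 16.4 CPM (SD, n = 4 libraries) lay above CA2/CA3 pyramidal neurons at 107 ± 8.18 and CA1 pyramidal neurons at 103 ± 10.1, and at the level of classes every dentate library exceeded every CA library. Within the classes this did not hold for each cluster: the largest CA2/CA3 cluster (2111 nuclei) held 107 to 132 CPM and the largest CA1 cluster 99.3 to 123 CPM, overlapping with dentate granule neurons. CA2/CA3 and CA1 overlapped. Mossy cells of the dentate hilus followed at 72.6 ± 6.54 CPM and overlapped with subicular or cortical excitatory neurons at 63.9 ± 3.72. Excitatory neurons of no finer type stood at 53.5 ± 5.04 CPM, overlapping with inhibitory neurons of the medial ganglionic eminence type (MGE-type, marked by Lhx6, Sst and Pvalb) at 47.2 ± 3.91. Outside the 11 classes, immature neurons reached at least 10 nuclei in only 3 libraries. They held 94.9 to 327 CPM of Dagla from 52 UMIs.

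Inhibitory neurons of the caudal ganglionic eminence type (CGE-type, marked by Adarb2, Vip and Npas1) held 20.8, 20.8, 16.2 and 16.3 CPM of Dagla. These 4 libraries lay below every MGE-type library, of which the lowest was 42.3 CPM. In oligodendrocytes, the myelin-forming cells, Dagla had 2, 7, 1 and 0 UMIs, a mean of 4.27 ± 4.88 CPM, and the count of 0 allows up to 31.4 CPM. That mean was 28.9 CPM with doublets kept and 39.8 CPM with nuclei assigned one by one by their markers, and in astrocytes the mean was 40.7 and 42.3 CPM in the same 2 alternatives. In oligodendrocyte precursors the mean moved from 15.7 to 32.1 CPM with nuclei assigned one by one. Precursors of oligodendrocytes had 30, 15, 0 and 1 UMIs and astrocytes 12, 2, 0 and 0 UMIs, and the counts of 0 allow up to 62.7 CPM in the precursors and up to 54.1 CPM in the astrocytes of the library labelled astrocyte knockout. The highest glial values, 47.7 CPM in astrocytes and 29.5 CPM in precursors, came from the wild-type library. The summed level of 8 neuron markers in those astrocytes was 306 CPM there and 339, 2490 and 429 CPM in the other libraries, against at least 6877 CPM in dentate granule neurons.

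Daglb RNA differed less between the means of the classes than Dagla RNA did. The mean ran from 37.5 ± 2.00 CPM in excitatory neurons of no finer type to 22.3 ± 19.6 CPM in astrocytes, a 1.68-fold span that was 2.60-fold without the library labelled neuron knockout. For Dagla the span of the 11 means was 33.1-fold, but it rested on 10 UMIs in oligodendrocytes and was 6.76-fold with doublets kept and 71.3-fold without the library labelled astrocyte knockout. Over the 8 neuron classes the spans were 1.30-fold for Daglb and 7.61-fold for Dagla. Within classes Daglb varied more, from 21.1 to 61.0 CPM over 14 clusters of excitatory neurons of no finer type. All 10 pairs of neighbours in the order of classes overlapped between libraries. Dentate granule neurons held 30.1, 37.0, 38.5 and 41.3 CPM, and CA1 neurons held 29.1, 28.9, 28.8 and 28.3. Within neurons the lowest mean was thus 28.8 ± 0.322 CPM in CA1, with 4 almost equal libraries. Mossy cells held 30.9 ± 3.13 CPM and oligodendrocyte precursors 24.8 ± 3.45 CPM. Microglia reached at least 10 nuclei in only 2 libraries, and 14 Daglb UMIs there gave 172 and 186 CPM, above every library of the 11 classes, while Dagla had 2 UMIs in the same nuclei.

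Napepld RNA separated the fields of the hippocampus more than the other 3 genes. Dentate granule neurons held 103, 78.9, 92.0 and 86.2 CPM, and CA1 pyramidal neurons held 7.50, 6.04, 6.73 and 6.23 CPM. The groups did not overlap, and the means of 90.1 ± 10.3 and 6.63 ± 0.654 CPM, the top and the bottom of the 11 classes, stood 13.6-fold apart. CA2/CA3 neurons lay between them with 51.3, 42.0, 43.1 and 39.2 CPM. Mossy cells at 39.3 ± 11.3 CPM and oligodendrocytes at 49.1 ± 13.4 CPM overlapped with CA2/CA3. The other 6 classes, from 19.6 ± 4.17 CPM in excitatory neurons of no finer type to 11.4 ± 8 CPM in astrocytes, overlapped among themselves from neighbour to neighbour. Of these 6, the astrocytes (6 UMIs, from 0 to 18 CPM) overlapped with CA1 and the other 5 lay above it. By cluster CA1 was not alone in its low level: a cluster of excitatory neurons of no finer type (721 nuclei) held 3.37 CPM and 2 subicular or cortical clusters held 4.82 and 4.94 CPM. Outside the 11 classes, thalamic excitatory and medium spiny neurons each reached at least 10 nuclei in only 2 libraries. Thalamic excitatory neurons held 88.4 and 99.1 CPM, within the range of the dentate granule libraries (78.9 to 103 CPM). Medium spiny neurons held 2.42 and 4.32 CPM, below every CA1 library but from only 10 UMIs in all.

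The contrast was also seen nucleus by nucleus. At least 1 Napepld UMI was found in 28.4% to 51.3% of dentate granule nuclei of the 4 libraries and in 3.69% to 7.22% of CA1 nuclei, although the median depth of CA1 nuclei was higher (6508 to 10999 UMIs against 4323 to 7987). At 1000 UMIs per nucleus the expected shares, calculated from the counts of each nucleus, were 7.59% to 9.61% and 0.554% to 0.653%. Shallower nuclei were left out, 130 of them dentate and none CA1. For Dagla the expected shares were 11.7% to 14.8% in dentate granule nuclei, 8.76% to 11% in CA1 and at most 0.42% in oligodendrocytes. There 404 of 1854 nuclei were left out, 388 of them in the library labelled total knockout. Per kb of gene, Napepld and Dagla had nearly the same level in dentate granule neurons, 2.34 and 2.37 CPM, whereas in CA1 they stood at 0.172 and 1.73 CPM.

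Gde1 RNA was most abundant in oligodendrocytes, with 123, 113, 124 and 105 CPM from 101, 234, 11 and 10 UMIs. This mean of 116 ± 8.98 CPM lay above all libraries of the next class, the subicular or cortical excitatory neurons at 80.2 ± 4.90 CPM. The precursors in the library labelled neuron knockout reached 115 CPM, from 5 UMIs. The other 9 classes, precursors included, overlapped among themselves from neighbour to neighbour in the order. They ran from 68.7 ± 6.12 CPM in excitatory neurons of no finer type down to 41.4 ± 15.4 CPM in astrocytes. Dentate granule neurons at 54.5 ± 4.10, CA1 at 58.9 ± 6.07 and CA2/CA3 at 53.5 ± 4.56 CPM overlapped, so that Gde1 did not show the field pattern of Napepld.

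**Figure D1:**
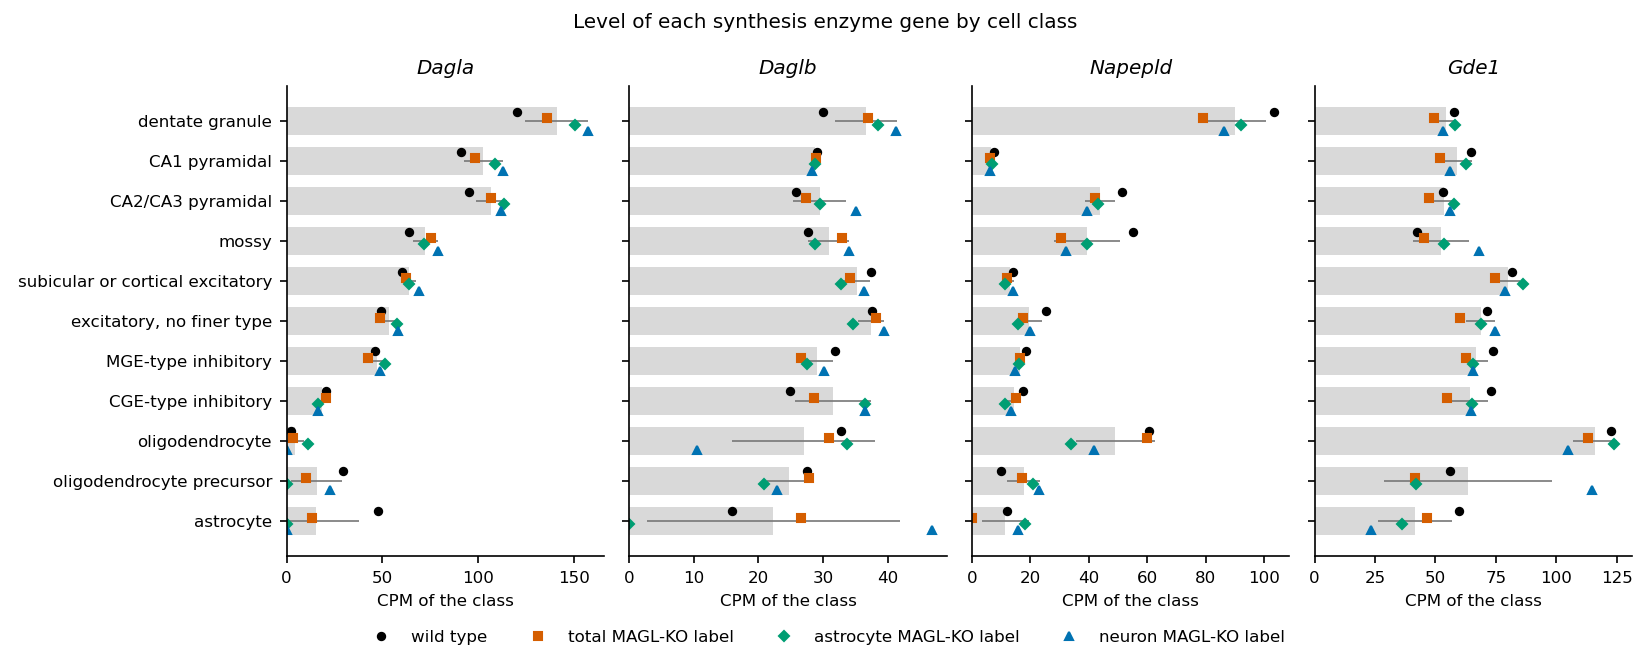
Level of Dagla, Daglb, Napepld and Gde1 (x axis, CPM of the class, a separate linear scale for each gene) in the 11 cell classes present in all 4 libraries (y axis). Points are libraries, bars the mean and lines the SD over 4 libraries; Dagla fell from 141 CPM in dentate granule neurons to 4.27 CPM in oligodendrocytes, the Daglb means spanned 1.68-fold, Napepld was lowest in CA1 at 6.63 CPM and Gde1 was highest in oligodendrocytes at 116 CPM.

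Classes were compared with edgeR's quasi-likelihood test on the summed UMIs, with the library, which is also the genotype, as a term and Benjamini-Hochberg adjustment over all genes tested. Such a test weighs the spread between 4 libraries of different genotype. The standard error (SE) given with each fold change was calculated back from the fold change and the F statistic of the test. Between dentate granule and CA1 neurons 61.9% of 15052 genes passed an adjusted p of 0.05, 31.4% higher and 30.5% lower in dentate granule neurons, so a call alone was common. Among the 4 enzyme genes, 3 were higher and 1 lower. Napepld was higher by 3.68 ± 0.06 on the log2 scale (SE, adjusted p = 6.18e-14) in 4 of 4 libraries, and Dagla by 0.37 ± 0.04 (adjusted p = 1.28e-06), also in 4 of 4. Daglb was higher by 0.27 ± 0.07 (adjusted p = 0.00579), with 30.3 CPM in the larger dentate granule cluster and 57.7 CPM in the smaller against 29.0 and 27.2 CPM in the 2 CA1 clusters. Gde1 differed by -0.19 ± 0.04 (adjusted p = 0.00148). Each of those smaller calls was lost in 3 of 13 alternatives, among them nuclei assigned one by one by their markers (adjusted p = 0.189 for Daglb and 0.139 for Gde1). That assignment gave only 31.2% of the 10105 dentate granule and 74.5% of the 5684 CA1 nuclei the same class, so it also used fewer dentate nuclei.

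Between dentate granule and CA2/CA3 neurons 65.2% of 15142 genes were called, 32.7% higher and 32.4% lower. Napepld was higher by 0.97 ± 0.05 (adjusted p = 1.45e-11), Dagla by 0.33 ± 0.04 (adjusted p = 1.19e-06) and Daglb by 0.26 ± 0.06 (adjusted p = 0.000933) in dentate granule neurons, so 3 of the 4 genes were called higher and none lower. The Daglb libraries overlapped and its call was lost with nuclei assigned one by one (adjusted p = 0.305). Gde1 had a fitted value of -0.03 ± 0.05 (adjusted p = 0.565) beside a mean of 54.5 CPM in dentate granule and 53.5 CPM in CA2/CA3 neurons. Between CA1 and CA2/CA3 54.3% of 14616 genes were called, 28.1% higher and 26.2% lower in CA1. Napepld was lower in CA1 by 2.70 on the log2 scale (log2 fold change -2.70 ± 0.07, adjusted p = 1.08e-18). Dagla (-0.03 ± 0.04, adjusted p = 0.553) and Daglb (SE 0.07, adjusted p = 0.997) were not called. Gde1 was called higher by 0.17 ± 0.05 (adjusted p = 0.00765), which made 1 higher and 1 lower. This Gde1 call was lost in 6 of 13 alternatives, among them the fit without the wild-type library (adjusted p = 0.134).

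Over all excitatory against all inhibitory neurons 64.6% of 18015 genes were called, 32.6% higher and 32% lower in excitatory neurons, and 3 of the 4 enzyme genes were higher and none lower. The inhibitory group held the MGE-type and CGE-type classes and 17 nuclei of no finer type. Left out were 772 medium spiny nuclei and the unnamed clusters. Among those, clusters of 878, 757, 744, 459 and 230 nuclei held more Gad1 and Gad2 than Slc17a7 and Slc17a6 RNA. In unnamed clusters of 1069, 729, 594 and 124 nuclei it was the reverse. Of these, the cluster of 729 nuclei was shallow and that of 124 was led by oligodendrocyte genes. Dagla stood at 82.1, 85.3, 103 and 101 CPM in excitatory and 38.6, 35.2, 41.4 and 38.2 CPM in inhibitory neurons, without overlap, and the difference was 1.38 ± 0.05 (adjusted p = 1.96e-08). Napepld was higher by 1.33 ± 0.06 (adjusted p = 6.02e-08) and Daglb by 0.31 ± 0.05 (adjusted p = 0.000512), neither with overlapping libraries. Gde1 was not called, and its sign depended on the scaling: the fitted value was 0.03 ± 0.04 (adjusted p = 0.522) with scaling by the trimmed mean of M values (TMM), while its mean CPM was 62.5 in excitatory and 66.1 in inhibitory neurons, lower in excitatory neurons in each of the 4 libraries. On library totals the median log2 fold change over all genes moved from 0.00 to -0.11, and the share of calls that were higher in excitatory neurons moved from 50.4% to 40.0%. The share higher in the first class also moved in the other neuron contrasts. It went from 50.7% to 60.1% in dentate granule against CA1 and from 50.2% to 56.7% against CA2/CA3. In CA1 against CA2/CA3 it went from 51.8% to 47.2%, and in MGE-type against CGE-type from 51.3% to 59.0%.

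Among inhibitory neurons, MGE-type against CGE-type, 36.9% of 13670 genes were called, 19% higher and 18% lower in MGE-type neurons. Dagla was higher in MGE-type neurons by 1.26 ± 0.11 (adjusted p = 3.09e-07) in 4 of 4 libraries, and it was the only enzyme gene called, so 1 was higher and none lower. Daglb stood at -0.16 ± 0.11 (adjusted p = 0.277), and without the wild-type library it was called at -0.30 (adjusted p = 0.0348). Napepld (0.14 ± 0.12, adjusted p = 0.405) and Gde1 (0.02 ± 0.06, adjusted p = 0.831) were not called.

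**Figure D2:**
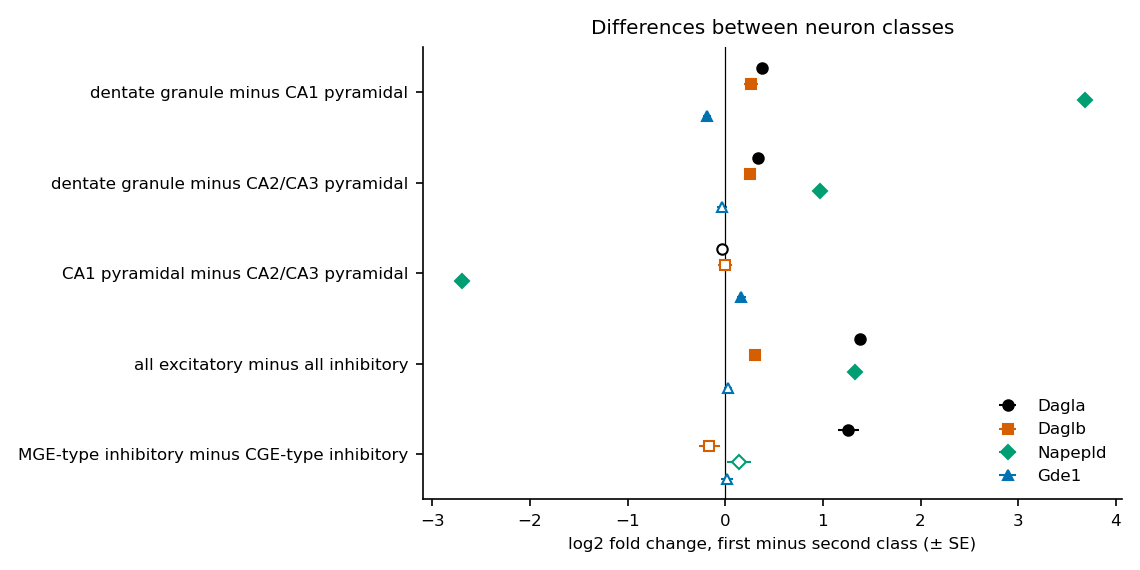
Fitted log2 fold change (x axis, ± SE, 4 libraries) of each enzyme gene between neuron classes (y axis, first minus second class); filled markers passed an adjusted p of 0.05 in edgeR and open ones did not. Napepld lies at 3.68 for dentate granule minus CA1 neurons and at -2.70 for CA1 minus CA2/CA3 neurons, while Gde1 lies between -0.19 and 0.17 in all 5 comparisons.

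Neurons were also set against the 3 glial classes, whose nuclei were shallow and few in the libraries labelled astrocyte and neuron knockout (17 to 52 nuclei per class). Against oligodendrocytes 51.3% of 17512 genes were called, 33.9% higher and 17.4% lower in neurons. Dagla was higher in neurons by 4.91 ± 0.33 (adjusted p = 8.02e-14), and by 1.33 both with doublets kept and with nuclei assigned one by one. The highest value over 13 alternatives was 11.8, so the size of this difference is not fixed. Gde1 was lower with a log2 fold change of -0.56 ± 0.18 (adjusted p = 0.00899), so 1 gene was called each way. The Gde1 libraries did not overlap, 57.3 to 66.5 CPM in neurons against 105 to 124 CPM, but its call was lost in 6 of 13 alternatives. Among them were the fits without the wild-type library (adjusted p = 0.0934) and without the library labelled total knockout (adjusted p = 0.221). Daglb (0.44 ± 0.22, adjusted p = 0.0912) and Napepld (-0.41 ± 0.19, adjusted p = 0.0759) were not called.

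Against oligodendrocyte precursors 44.2% of 17442 genes were called, 25.7% higher and 18.5% lower in neurons, and 3 of the 4 enzyme genes were called higher and none lower. Dagla was higher in neurons by 2.30 ± 0.22 (adjusted p = 5.94e-25) and Napepld by 1.45 ± 0.26 (adjusted p = 2.13e-07). Over 13 alternatives Dagla ran from 1.59 to 3.17 and Napepld from 1.01 to 2.20. Gde1 was called at 0.51 ± 0.17 (adjusted p = 0.00951) although its mean CPM was 63.0 in neurons and 63.5 in precursors. Its call was lost in 7 of 13 alternatives, among them library totals in place of TMM scaling (adjusted p = 0.108) and the fits without the wild-type library (0.228) and without the library labelled total knockout (0.251). Daglb at 0.46 ± 0.22 (adjusted p = 0.0848) was not called, and was called in 4 of 13 alternatives. Against astrocytes 32.2% of 17337 genes were called, 20.6% higher and 11.5% lower, and all 4 enzyme genes were called higher in neurons. The astrocytes held 14, 14, 6 and 27 UMIs of Dagla, Daglb, Napepld and Gde1 in all, so these fold changes are imprecise. They may also be too large, because fitted values of this comparison were shifted upward in simulated data. The mean CPM was 33.5 in neurons and 22.3 in astrocytes for Daglb, and 63.0 and 41.4 for Gde1. Dagla (2.42 ± 0.36, adjusted p = 1.25e-10) and Napepld (2.33 ± 0.51, adjusted p = 3.09e-05) passed the test in each of 13 alternatives, but the size of the difference moved. Dagla ran from 1.16 with nuclei assigned one by one to 4.46 without the wild-type library, and Napepld from 0.89 (adjusted p = 0.0398) with nuclei assigned one by one to 2.87 thinned. Daglb (1.04 ± 0.40, adjusted p = 0.0332) lost the call in 10 of 13 alternatives and Gde1 (1.06 ± 0.32, adjusted p = 0.00349) in 4. On library totals their adjusted p were 0.452 and 0.271. That of Daglb was 0.283, 0.0979 and 0.0916 without the wild-type library and without those labelled total and astrocyte knockout, and that of Gde1 was 0.0503 without the library labelled neuron knockout.

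In these 3 comparisons the scaling moved all genes: the median log2 fold change over all genes was 0.34, 0.15 and 0.45 with TMM and 0.02, -0.05 and -0.11 on library totals, and the share of calls that were higher in neurons moved from 66.1%, 58.2% and 64.1% to 51.0%, 46.5% and 39.7%.

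Since Dagla and Daglb encode alternatives for the same step, their ratio was taken within each library and class. It does not depend on depth or scaling, only on the counting of the 2 genes. Dentate granule neurons had 4.01, 3.69, 3.91 and 3.82 Dagla UMIs per Daglb UMI. CA1 neurons (3.58 ± 0.386) and CA2/CA3 neurons (3.65 ± 0.328) overlapped with them. The ratio was lower in mossy cells (2.35 ± 0.0970), subicular or cortical excitatory neurons (1.82 ± 0.152), MGE-type neurons (1.63 ± 0.173) and excitatory neurons of no finer type (1.43 ± 0.176), and no library of these 4 classes reached a dentate granule or CA library.

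CGE-type neurons had 0.838, 0.730, 0.444 and 0.447 Dagla UMIs per Daglb UMI. It was the only neuron class of the 8 with 4 libraries in which Daglb UMIs outnumbered those of Dagla, and its libraries did not overlap with any of the other 7. Both CGE-type clusters showed this, with 167 Dagla against 319 Daglb UMIs and 106 against 134, but it was not limited to them: a cluster of excitatory neurons of no finer type (704 nuclei, led by Shisa8) had 125 against 155. The exact 95% interval of the ratio, which covers counting error only, lay below 1 in the 3 libraries labelled knockout and reached 1.19 in wild type. Oligodendrocytes had 0.129 ± 0.144 Dagla UMIs per Daglb UMI, from 10 and 95 UMIs in all. Which gene leads in CGE-type neurons depends on the length used: per kb of gene the ratio was 2.67 in dentate granule and 0.426 in CGE-type neurons, and per kb of annotated exon it was 6.42 and 1.02.

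**Figure D3:**
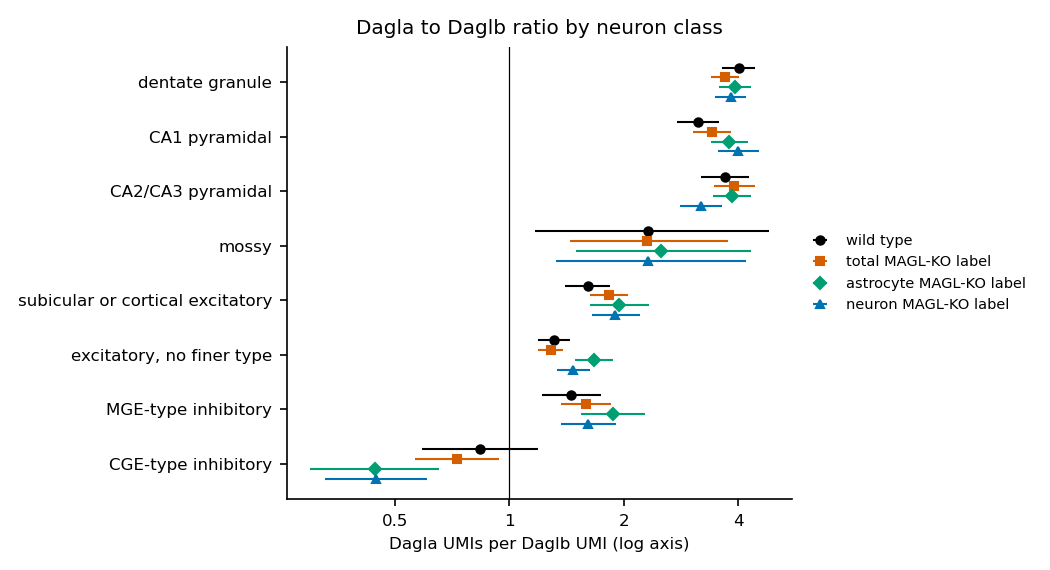
Dagla UMIs per Daglb UMI (x axis, log scale) in 8 neuron classes (y axis), with 1 point per library and its exact 95% interval for counting error. CGE-type inhibitory neurons lie below 1 in all 4 libraries, between 0.444 and 0.838, and dentate granule neurons lie between 3.69 and 4.01.

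Classes were not uniform within themselves, and their clusters differed for single genes. The 4 CA2/CA3 clusters ranged from 41.0 to 123 CPM in Dagla. Of the 2 CA1 clusters, the larger (4874 nuclei) held 113 ± 10.6 CPM of Dagla and the smaller (810 nuclei, led by Gm12130 and Fibcd1) 52.8 ± 8.9 CPM, while Napepld was low in both at 6.68 and 6.32 CPM. The 2 dentate granule clusters were alike in Dagla (143 and 135 CPM) and Napepld (91.7 and 85.0 CPM), but Daglb was 30.3 ± 4.7 CPM in the larger and 57.7 ± 4.1 CPM in the smaller. The 2 CGE-type clusters held 17.0 CPM of Dagla where Slc17a8 and Frem1 led and 21.2 CPM where Vip led, beside 32.2 and 29.5 CPM of Daglb. Over the 14 clusters of excitatory neurons of no finer type with at least 10 nuclei in every library, Dagla ranged from 36.3 to 75.8 CPM and Napepld from 3.37 to 49.4 CPM. Napepld ranged from 4.82 to 41.7 CPM over the 6 subicular or cortical clusters of that size. These are descriptions of clusters drawn from the same nuclei, with no test, although the 4 genes were kept out of the genes used for clustering.

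The genotypes had 1 library each, so no test between them was possible, and the values below compare libraries with exact 95% intervals for counting error only. The 3 ratios of each set share the wild-type library. No enzyme gene reached 1.5-fold in any of the 15 neuron comparisons. In other settings 6 values did, all but 1 of them Napepld below wild type, with 2 resting on at least 100 UMIs over the pair of libraries. Those 2 were Napepld over all excitatory neurons of the library labelled total knockout with nuclei assigned one by one (log2 ratio -0.65), and Daglb in dentate granule neurons of the library labelled astrocyte knockout with thinned nuclei (0.67). Thinning was a random draw. The expected shares of dentate granule nuclei with a Daglb UMI at 1000 UMIs were 3.17% in wild type and 3.88% in that library. The other 4 values past 1.5-fold, from -0.61 to -0.94, had fewer UMIs. The share of all genes with at least 100 UMIs that did was 5.66%, 5.34% and 4.63% in dentate granule neurons for the libraries labelled total, astrocyte and neuron knockout, 5.51%, 3.22% and 4.63% in CA1 and 4.72%, 2.27% and 4.16% in CA2/CA3. It was 6.95%, 5.12% and 4.59% over all excitatory and 5.2%, 4.54% and 5.57% over all inhibitory neurons. The median log2 ratio of all genes lay between -0.06 and -0.01.

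Napepld was below wild type in all 15 of those ratios, and the interval excluded zero in 10. Of the genes with at least 100 UMIs in each of the 15 comparisons, 11.8% were below wild type in all 15 and 9.84% had an interval below zero in at least 10. The 15 ratios are not independent, since each group has 1 wild-type library and the excitatory group contains the dentate granule, CA1 and CA2/CA3 nuclei. Of 90 values of these ratios under other settings, 88 were below zero. The exceptions were CA1 neurons of the library labelled astrocyte knockout with nuclei assigned one by one (0.03), and all inhibitory neurons of the library labelled total knockout with doublets kept (0.04). Over all excitatory neurons its levels were 44.5, 32.6, 37.0 and 34.6 CPM, with wild type above each library labelled knockout. The log2 ratios were -0.45 (-0.52 to -0.37), -0.27 (-0.35 to -0.19) and -0.36 (-0.45 to -0.28). In dentate granule neurons they were -0.39 (-0.49 to -0.29), -0.17 (-0.27 to -0.06) and -0.26 (-0.37 to -0.15). In CA1, where Napepld is scarce, the 3 intervals included zero. The ratios over all excitatory neurons also carry the mix of classes. Dentate granule neurons made up 21.8%, 17.5%, 20.8% and 20.4% of the kept nuclei, and CA1 neurons 10.5%, 7.81%, 17.0% and 13.0%. These are shares of all kept nuclei, glia and unnamed clusters included, and not of the excitatory group. Since the library labelled total knockout was nearly all male and the others mixed, the ratios over all excitatory neurons were also taken among male nuclei, where they were -0.50, -0.34 and -0.36.

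Dagla was above wild type in dentate granule neurons, by 0.18 (0.10 to 0.26), 0.32 (0.23 to 0.41) and 0.39 (0.30 to 0.48) on the log2 scale. The share of all genes with that pattern was not counted. Within the larger dentate granule cluster the ratios were 0.21 (0.12 to 0.30), 0.36 (0.26 to 0.47) and 0.41 (0.31 to 0.50). Within the smaller they were 0.08 (-0.11 to 0.27), 0.21 (0.01 to 0.41) and 0.32 (0.12 to 0.53). In CA2/CA3 neurons Dagla was above by 0.16, 0.25 and 0.23, each interval above zero. In CA1 neurons the ratios were 0.11 (-0.01 to 0.23), 0.26 and 0.31, and with each nucleus thinned to 1000 UMIs they were -0.26, 0.16 and -0.09, so the direction in CA1 turned in 2 of the 3 libraries. The smaller CA1 cluster, with less Dagla, held 101 of 942 CA1 nuclei in wild type. In the other libraries it held 353 of 1924, 229 of 1698 and 127 of 1120. Over all inhibitory neurons the ratios of -0.13, 0.10 and -0.01 had intervals that included zero. Among all kept nuclei the share of dentate granule nuclei was 21.8% in the wild-type library and 17.5%, 20.8% and 20.4% in the others. Shares within the excitatory group were not taken, and ratios over all excitatory neurons also carry its mix of classes.

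Daglb was above wild type in dentate granule neurons by 0.30 (0.13 to 0.47), 0.36 (0.18 to 0.54) and 0.46 (0.28 to 0.63), where wild type had the lowest of the 4 levels. The smaller dentate granule cluster, the one with more Daglb, made up 19.8% of these nuclei in wild type and 26.9%, 27.3% and 24.3% in the others. Within the larger cluster the ratios were 0.22 (0.01 to 0.42), 0.22 (-0.01 to 0.45) and 0.53 (0.32 to 0.74), and within the smaller they were 0.16, 0.24 and 0.09, with intervals that included zero. In CA2/CA3 neurons of the library labelled neuron knockout Daglb was above by 0.44 (0.20 to 0.69), and over all excitatory neurons of that library by 0.17 (0.08 to 0.26). In the libraries labelled total and astrocyte knockout the ratios were 0.08 and 0.19 in CA2/CA3 and 0.09 and 0.01 over all excitatory neurons. Over all inhibitory neurons they were -0.13, 0.02 and 0.13. In CA1 the Daglb ratios were -0.01, -0.02 and -0.04, with intervals that included zero. Of its 15 ratios 11 were above zero, 6 of them with the interval above zero, and 4 were below. How many of all genes had such a pattern was not counted. Gde1 was lower in the library labelled total knockout in each of the 5 neuron groups, by -0.20 (-0.26 to -0.14) over all excitatory and -0.30 (-0.44 to -0.15) over all inhibitory neurons, and its interval included zero only in CA2/CA3 (-0.16). Of genes with at least 100 UMIs in those 5 comparisons, 28.9% were also below wild type in all 5. In the libraries labelled astrocyte and neuron knockout the ratios over all excitatory neurons were -0.03 and -0.04, with intervals that included zero. The library labelled neuron knockout was below wild type in CA1 by -0.21 (-0.37 to -0.05) and over all inhibitory neurons by -0.18 (-0.33 to -0.03), and the library labelled astrocyte knockout over all inhibitory neurons by -0.17 (-0.33 to -0.01). In glial classes most counts were under 100 UMIs over the pair of libraries, and no enzyme gene with more was past 1.5-fold. Among the smaller counts, Dagla in oligodendrocyte precursors had 30 UMIs in wild type and 15 in the library labelled total knockout, a log2 ratio of -1.53 (-2.53 to -0.60).

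**Figure D4:**
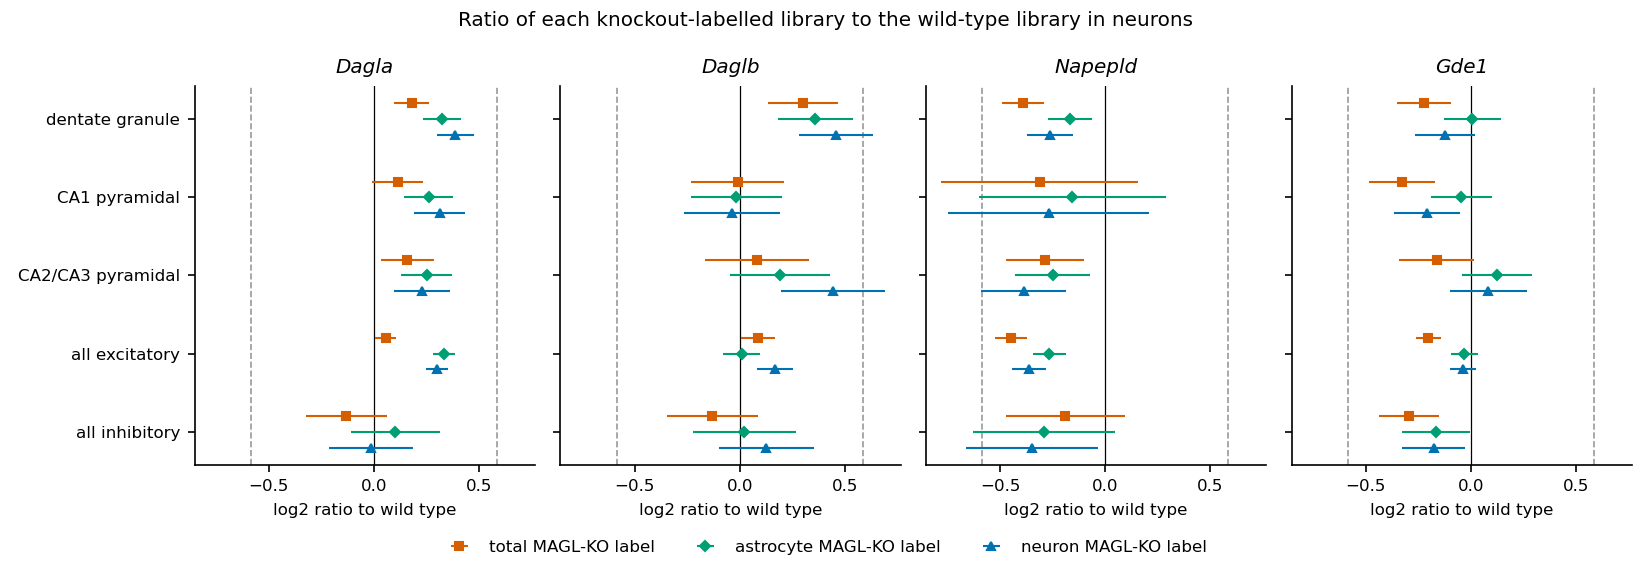
Log2 ratio of each library labelled knockout to the wild-type library (x axis) in 5 neuron groups (y axis), 1 panel per enzyme gene; lines are exact 95% intervals for counting error and dashed lines mark 1.5-fold. All 15 Napepld ratios lie below zero, from -0.45 to -0.16, and no point of any gene passes a dashed line.

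The genes around the 4 enzymes were counted from fixed lists. Of 8 tested other genes of N-acylethanolamine synthesis, 4 were higher and 2 lower in dentate granule than in CA1 neurons, with a median log2 fold change of 1.42 against 0.01 over all genes, of which 31.4% were higher and 30.5% lower. Pla2g4e, which encodes a calcium-dependent N-acyltransferase that makes the substrate of the Napepld enzyme, stood at 59.9 ± 9.79 CPM in dentate granule and 3.15 ± 1.09 CPM in CA1 neurons (log2 fold change 4.19 ± 0.10). Gdpd3, a lysophospholipase D gene, was higher by 2.32 ± 0.16, and Gdpd1, of the same family, was lower by -0.54 ± 0.04. Against CA2/CA3 neurons 5 were higher and 2 lower, beside 32.7% and 32.4% of all genes, and Pla2g4e was higher by 4.91 ± 0.14. Pla2g4e was thus low in CA2/CA3 neurons (2.00 CPM), where Napepld was at 43.9 CPM.

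Of 9 tested other genes of the 2-AG route, 4 were higher and 3 lower in dentate granule than in CA1 neurons, with a median log2 fold change of -0.03, beside 31.4% and 30.5% of all genes. Plcg2, a phospholipase C gene, had 25.2 ± 2.10 CPM in dentate granule and 0.354 ± 0.147 CPM in CA1 neurons. Plcb1, the phospholipase C gene of the highest level in the list, had 1404 and 1360 CPM and was not called. Of 5 breakdown genes 1 was higher and 1 lower: Mgll had 123 ± 15.4 CPM in dentate granule and 67.1 ± 12.9 CPM in CA1 neurons over the 4 libraries, and Naaa, a hydrolase of N-acylethanolamines, had 1.44 and 4.37 CPM. The receptor gene Cnr1 had 5.95 ± 1.00 CPM in dentate granule and 83.8 ± 3.98 CPM in CA1 neurons, so the class highest in Dagla and Napepld held little of it.

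Between excitatory and inhibitory neurons 4 of 5 breakdown genes were higher in excitatory neurons and 1 lower. Faah, the main hydrolase of anandamide, had 111 CPM against 36.8 CPM (log2 fold change 1.70 ± 0.05), in the direction of Napepld and Dagla. Of the 2-AG route genes 3 of 10 were higher and 4 lower, and of the 8 N-acylethanolamine synthesis genes 2 were higher and 3 lower, near the 32.6% higher and 32% lower of all genes. Cnr1 had 1257 ± 69.9 CPM in CGE-type and 47.1 ± 9.52 CPM in MGE-type neurons, so the neuron class with the fewest Dagla UMIs per Daglb UMI held the most Cnr1. Of the 8 tested N-acylethanolamine genes, 3 were higher and 3 lower in neurons than in oligodendrocytes, beside 33.9% and 17.4% of all genes. Among those lower, Plaat3, which encodes an acyltransferase and phospholipase, had 210.5 ± 65.4 CPM in oligodendrocytes against 0.920 CPM in neurons, in the glial class that was highest in Napepld and Gde1.

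Across the 11 class means, on log2(CPM + 1), Dagla and Daglb had a Pearson r of 0.696, and the other 5 pairs of enzyme genes ranged from -0.222 to 0.426. All points share the 4 libraries, and glial points rest on low depth. The 3 glial classes were also the lowest in both Dagla and Daglb. Over the 8 neuron classes Dagla ran from 7.14 in dentate granule to 4.28 in CGE-type neurons on this scale. Daglb stayed between 4.90 and 5.27, with 5.23 and 5.01 in those classes, so their r rests largely on the glial points. No r was taken over neurons alone. Among 17767 genes, the 5 most like Dagla were Mipep, Arl1, Syt7, Ano3 and Olfr1256 (r from 0.972 to 0.985). For Daglb they were Faim2, Klhdc3, Pou2f2, Slx4 and Zbtb9 (0.964 to 0.975). For Napepld they were Acot12, Mfsd13b, Snx24, Gm16876 and 4933415A04Rik (0.87 to 0.94), and for Gde1 Nrd1, Sytl2, Nudt4, 1500004A13Rik and Rad9a (0.922 to 0.946). No gene was on 2 of these lists.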

How the data were processed

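Per the labels, nuclei cleaned on iodixanol went into a 10x Genomics kit for RNA and chromatin. Only RNA was analysed here. The authors deposited whole-number UMI counts per gene and barcode, not normalized, made with Cell Ranger ARC 2.0.0 on mm10 per the submitters' processing notes. The annotation and strand use behind these counts: not given in the sources used here. Nuclei with at least 500 genes and at most 5% mitochondrial UMIs were kept and doublets removed by a Scrublet-type caller written for this work. Nuclei were clustered without the members and listed pathway genes (2000 variable genes, 30 principal components, 15 neighbours, leidenalg 0.10.2, igraph 0.11.9, scikit-learn 1.9.0, Python 3.11.15). A cluster took a name from at least 3 markers, each in at least 10% of its nuclei and 2-fold above other nuclei, and a neuron class also from transmitter genes of its lineage (Slc17a7 and Slc17a6 above Gad1 and Gad2, or the reverse), and lost it where as many of its leading genes marked another type; 14 clusters with 5898 nuclei stayed unnamed. UMIs were summed per library and class (at least 10 nuclei), scaled to CPM and tested with edgeR 4.0.16 (R 4.3.3), with DESeq2 1.42.0 as an alternative; the edgeR step was tested on simulated data, where it recovered most changes between dentate granule and CA1 neurons and few smaller ones between neurons and astrocytes, with fitted values shifted upward in the latter. Ratios and their exact intervals used scipy 1.17.1. All 4 members were named in every contrast, with the 5 genes of highest r for each member, and pathway genes called in the contrast described or, as with Plcb1, chosen after their values were seen. Members and lists were chosen with earlier results of these data known, and the rule for cluster names was set after clusters were seen. Intervals cover counting error only. Alternatives are given in the closing section.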

Additional observations from a re-analysis of the deposited data

Results flagged for a closer look

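Of 44 combinations of enzyme gene and class with 4 libraries, 1 had a library far from the others by Dixon's ratio, and chance alone flags about 1 in 20. Daglb in the oligodendrocytes of the library labelled neuron knockout stood at 10.5 CPM against 30.9 to 33.8 CPM in the other libraries. That value rests on 1 UMI.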

How the results depend on the processing

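Of 415 refitted values of the 4 genes in class contrasts, 345 kept their direction and side of the threshold, 42 lost a call, 16 gained one and 12 turned in sign. All 12 were uncalled before and after. They were Gde1 in dentate granule against CA2/CA3 (0.030 on library totals, 0.011 thinned, -0.065 to 0.0020 with a library left out), in excitatory against inhibitory (-0.078 on library totals, -0.0099 with doublets, -0.045 one by one) and in MGE-type against CGE-type (-0.12 one by one, -0.24 thinned, -0.030 to 0.039 with a library left out). The others were Daglb in MGE-type against CGE-type (0.048 thinned), and in CA1 against CA2/CA3 Dagla (0.0097 thinned) and Daglb (-0.076 to 0.092 with a library left out). No call of Dagla or Napepld was lost. Dagla gained one in CA1 against CA2/CA3 in 2 alternatives and Napepld in neurons against oligodendrocytes in 6. With nuclei assigned one by one, Dagla UMIs per Daglb UMI were 4.03 in dentate granule, 2.88 in CA1, 3.32 in CA2/CA3, 1.84 in excitatory neurons of no finer type and 1.24 in oligodendrocytes; with doublets kept, 0.899 in oligodendrocytes and 1.14 in their precursors. Members past 1.5-fold rose from 0 to 1 for the total knockout label over all excitatory neurons with nuclei assigned one by one, and for the astrocyte knockout label in dentate granule neurons with thinning.

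Counts of members called that moved by over 1.5 times were these. Dentate granule against CA1 had 2 (of 4) with nuclei assigned one by one or thinned. CA1 against CA2/CA3 had 1 in DESeq2, without the library term, in male nuclei, thinned, and 1 to 2 with a library left out. MGE-type against CGE-type had 1 to 2 with a library left out, Daglb being the second, without wild type. Neurons against oligodendrocytes had 1 in DESeq2 and male nuclei, 4 without the library term and 1 to 3 with a library left out. Neurons against astrocytes had 2 in DESeq2, on library totals and one by one. Smaller moves of a count hid other losses: Daglb lost its call in 10 of 13 alternatives against astrocytes and in 3 in dentate granule against CA2/CA3, and against precursors Gde1 lost it in 7 and Daglb gained one in 4.

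Genes called fell with thinning from 9321 to 4676 and 9867 to 4543 (dentate granule against CA1 and CA2/CA3), 7933 to 2834 (CA1 against CA2/CA3), 11630 to 6409 (excitatory against inhibitory), 5051 to 1837 (MGE-type against CGE-type) and 7715 to 4417 (neurons against precursors). DESeq2 called 3209 (MGE-type against CGE-type) and 4032 (precursors), one-by-one assignment 3832 (precursors), and male nuclei gave 3702 against astrocytes (5575 over all nuclei). Leaving out a library gave 5673 to 8750 for oligodendrocytes (8980 with all) and 5087 to 7636 for precursors; the lowest of each came without the library labelled total knockout. The cause was not tested. Library totals in place of TMM were tried after seeing the data. Assignment one by one gave the class of the cluster to 31.2% of dentate granule, 69.4% of CA2/CA3, 46.7% of CGE-type and 2.16% of mossy nuclei.

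No paired analysis was possible because each genotype had 1 library, where genotypes are compared. The class contrasts are paired by library through the library term, and the fit without it is given above. In glia, depth limits all 4 genes.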
